A study of Mus musculus with 12 samples.

Results

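The 10 genes followed here mark dendritic cells or their subsets and were measured in bulk RNA from mouse colon: Itgax, Flt3, Xcr1, Clec9a, Zbtb46, Batf3, Cd209a, Siglech, Fscn1 and Clec10a. They were taken by name from a table of 54109 gene identifiers, and all 10 of 10 were found. The series holds 12 libraries in 4 groups of 3, namely full colon of wild-type mice (colon WT), full colon of mice labelled GPR15L KO (colon KO), LPMC of wild-type mice (LPMC WT) and LPMC of mice labelled GPR15L KO (LPMC KO). LPMC usually stands for lamina propria mononuclear cells, the leukocytes released from the gut wall. Every group, controls included, had acute colitis from Dextran Sulfate Sodium, which damages the gut lining when taken up, so no uninflamed reference is part of the comparisons. Gpr15l encodes a ligand of Gpr15, a receptor that draws T cells to the large bowel. The sources used here give no strain, age, dose or design of the deleted allele. They also leave unsaid whether each library is a mouse of its own, and p-values therefore cover only library-to-library spread, part of which may be technical.

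Dendritic cells take up antigen in tissues and present it to T cells. Conventional dendritic cells depend on the growth factor receptor Flt3 and divide into cDC1, which cross-present material from dead cells to CD8 T cells, and cDC2, which chiefly prime CD4 T cells. Plasmacytoid dendritic cells are specialised in making type I interferon, and mature dendritic cells of any origin change shape and migrate to lymph nodes. In the gut wall these cells carry antigen from the epithelium to the draining nodes and share several surface molecules with macrophages.

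Itgax encodes the integrin chain CD11c, which gut macrophages carry too, and lies on the plus strand of chromosome 7 from 128129547 to 128150657 (GRCm38, GENCODE M21). Flt3 (chromosome 5, 147330741 to 147400489, minus strand) encodes the receptor of the growth factor Flt3l. Zbtb46 (chromosome 2, 181387762 to 181459426, minus strand) encodes a transcription factor of conventional dendritic cells that endothelium also expresses. The cDC1 genes are Xcr1 (chromosome 9, 123852315 to 123862029, minus strand), the receptor of the chemokine Xcl1, Clec9a (chromosome 6, 129408862 to 129424763, plus strand), a lectin that senses dead cells, and Batf3 (chromosome 1, 191097847 to 191108945, plus strand), a transcription factor that cDC1 need and that activated T cells can express. The cDC2 genes are Cd209a (chromosome 8, 3743397 to 3748984, minus strand), a lectin of the DC-SIGN family, and Clec10a (chromosome 11, 70156197 to 70170834, plus strand), a galactose-binding lectin that macrophages share. Siglech (chromosome 7, 55768178 to 55778925, plus strand) is a sialic acid-binding lectin of plasmacytoid dendritic cells. Fscn1 (chromosome 5, 142960343 to 142973185, plus strand) encodes the actin-bundling protein fascin, which rises when dendritic cells mature and which neurons and endothelium also use.

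Siglech, Cd209a and Flt3 were among the 4 members that passed the test between LPMC and colon, and their promoter windows are shown for that reason. The windows come from RefSeq (GRCm38.p6), hold 250 bases before and 50 after the start site, and are written in the direction of the gene. Siglech lies at chr7:55767934-55768233 (plus strand), Cd209a at chr8:3748935-3749234 (minus strand) and Flt3 at chr5:147400440-147400739 (minus strand). Capitals mark matches to 4 motifs searched on both strands, namely EICE, a joint ETS and IRF element (GGAA and GAAA separated by any NN), an ISRE core (GAAA and GAAA separated by any NN), AP-1 (TGANTCA) and PU.1 (GAGGAAGT). The motifs can overlap each other.
Siglech: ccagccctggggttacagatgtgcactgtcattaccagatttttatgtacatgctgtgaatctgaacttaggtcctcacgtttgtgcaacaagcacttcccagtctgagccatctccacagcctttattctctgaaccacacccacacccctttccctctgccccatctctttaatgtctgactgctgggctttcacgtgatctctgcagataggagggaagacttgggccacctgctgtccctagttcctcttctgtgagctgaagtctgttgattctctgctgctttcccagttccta
Cd209a: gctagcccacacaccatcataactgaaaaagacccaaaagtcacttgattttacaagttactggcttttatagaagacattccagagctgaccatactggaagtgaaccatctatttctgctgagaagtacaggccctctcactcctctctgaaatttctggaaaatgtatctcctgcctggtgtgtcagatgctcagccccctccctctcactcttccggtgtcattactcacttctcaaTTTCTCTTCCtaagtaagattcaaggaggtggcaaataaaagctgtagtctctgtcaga
Flt3: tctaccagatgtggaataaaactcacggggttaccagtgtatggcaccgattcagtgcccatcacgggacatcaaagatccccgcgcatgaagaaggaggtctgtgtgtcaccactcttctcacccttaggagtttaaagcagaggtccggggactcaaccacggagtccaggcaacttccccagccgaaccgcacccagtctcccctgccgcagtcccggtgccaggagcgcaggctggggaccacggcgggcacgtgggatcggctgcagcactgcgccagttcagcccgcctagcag
A window was given for 9 members, and Clec10a was not matched. The Cd209a window held 1 EICE match on the opposite strand, which ended on the start base itself, and 2.72% of all 32851 windows of this length held one. AP-1 matches were found in 2 of 9 windows (Itgax and Zbtb46), against 7.81% of all windows. No match to the ISRE core (3.44% of all windows) or to PU.1 (3.20%) was found in the 9. The Zbtb46 window is not printed because the RefSeq start lies inside the gene as GENCODE M21 draws it. A match is a description of these letters only.

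Library totals were 45.4 to 140.7 times 1000000 counts, and reads of the deleted gene (2610528A11Rik in the annotation) were at 292 to 970 CPM in the WT libraries and at 0.0291 to 0.228 CPM in the KO libraries. Levels are counts per 1000000 counts of the library, scaled by TMM factors (CPM). Leukocyte markers (6 genes, Ptprc among them) summed to 25.1 to 621 CPM in colon and 273 to 1038 CPM in LPMC. LPMC libraries also kept much epithelial RNA: 8 epithelial markers summed to 8848 to 12511 CPM, against 15078 to 29309 CPM in colon. None of these markers had 0 counts in all 12 libraries. On the second principal component of log2 CPM (10.2% of the variance), colon KO replicate 2 stood at -85.03 against -10.69 to 52.45 in the other colon libraries. LPMC WT replicate 3 (-66.03) and LPMC KO replicate 2 (-63.54) stood apart from the other LPMC libraries (11.66 to 43.62). These 3 libraries held the lowest value of their tissue for most members, so the results that rest on them are given with and without them.

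The first comparison was between the cell preparation and the whole tissue, with both genotypes weighted equally. Siglech, Cd209a, Zbtb46 and Flt3 were higher in LPMC and passed edgeR's test. The other 6 members did not pass, and Batf3 was the one member with a negative estimate. So 4 of 10 members were called higher and 0 lower, where 25.4% of all 20989 genes tested were called higher and 24.9% lower. The median log2 fold change was 1.08 over the members and 0.008 over all genes tested. In bulk RNA, fewer cells of a type and less RNA per cell cannot be told apart.

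**Figure D1:**
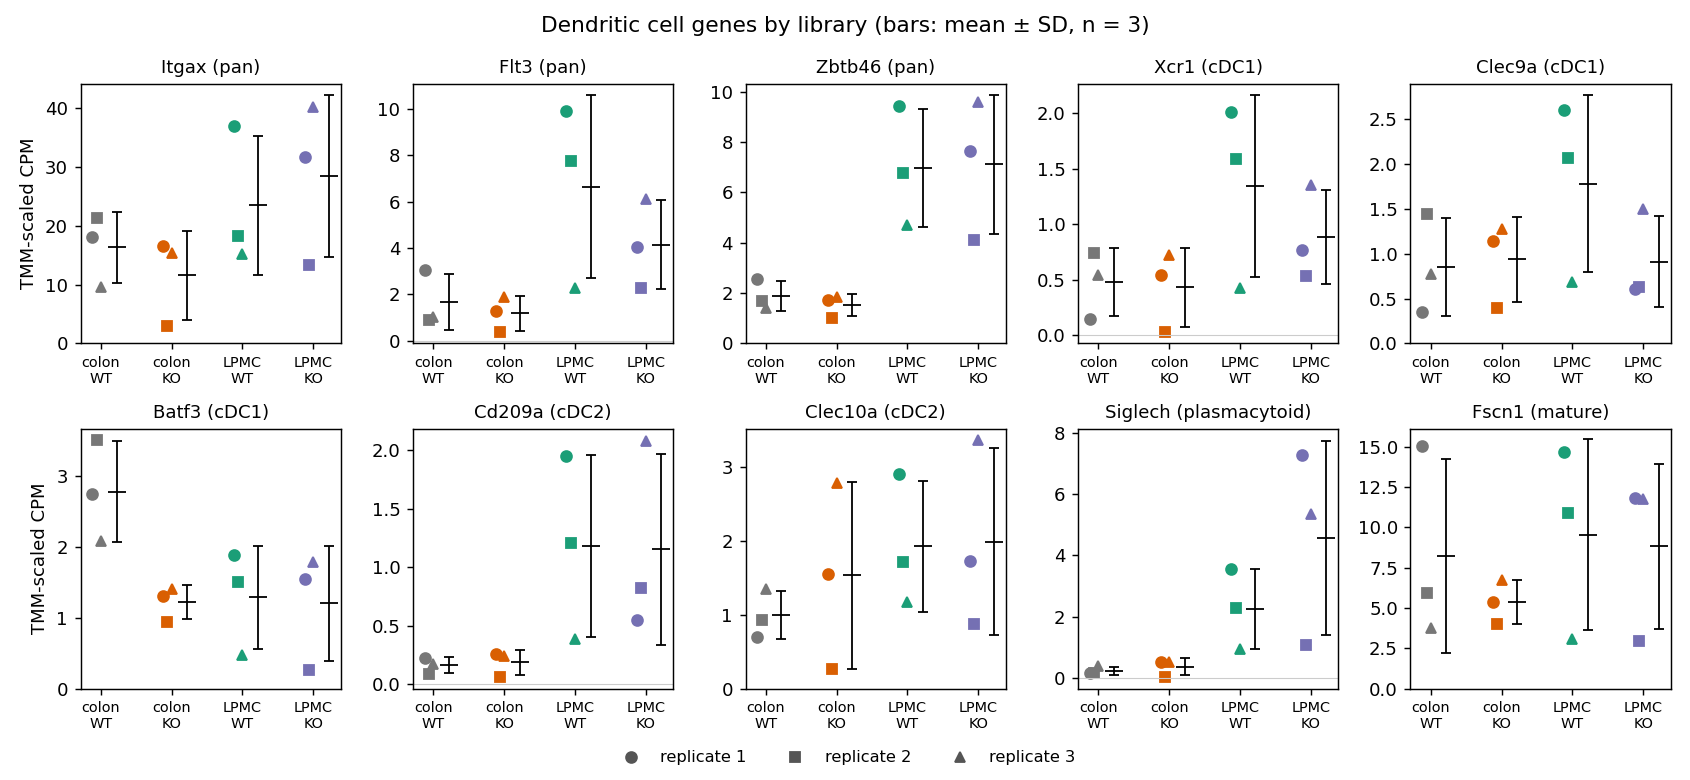
Level of each dendritic cell gene in every library, in TMM-scaled CPM (vertical axis, scaled per gene and reaching down to 0), by group; points are libraries, with the marker shape giving the replicate, and bars are the mean ± SD of 3 libraries. Siglech, Cd209a and Zbtb46 show every LPMC library above every colon library, as did 14.5% of all genes tested. Batf3 shows the 3 colon KO libraries below the 3 colon WT libraries, as did 6.53% of all genes tested.

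Siglech, the plasmacytoid gene, differed most in size. Its level was 0.145, 0.163 and 0.373 CPM in colon WT replicates 1 to 3 and 0.528, 0.0326 and 0.509 CPM in colon KO. In LPMC it was 3.56, 2.27 and 0.937 CPM in WT and 7.28, 1.07 and 5.37 CPM in KO. Every LPMC library was above every colon library, as it was for 3 of 10 members and for 14.5% of all genes tested. The log2 fold change was 3.47 (SE 0.66, adjusted p = 0.00139), or 11.1-fold. Per library, Siglech reads came to 0.117 to 4.29% of Ptprc reads in colon and to 0.734 to 2.63% in LPMC, so the ranges overlapped once set against the pan-leukocyte gene. Ptprc, which encodes CD45, was itself 2.52 (SE 0.68) higher on the log2 scale in LPMC (adjusted p = 0.0107).

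Of 15 other plasmacytoid dendritic cell genes, 5 were called higher and 4 lower in LPMC (median 1.05), against 25.4% and 24.9% of all genes. The 4 of lowest p were the gut-homing receptor Ccr9 (3.48, SE 0.44), the interferon regulator Irf7 (-1.43, SE 0.21), the transcription factor Runx2 (2.58, SE 0.43) and the sodium pump subunit Atp1b1 (-0.69, SE 0.16). Adjusted p was 0.000104, 0.000293, 0.000613 and 0.0043 in that order. Atp1b1 and Irf7 are also expressed widely outside this cell type, and mean Atp1b1 was 1123 CPM in colon against 695.5 CPM in LPMC.

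Cd209a and Clec10a, the cDC2 lectins, are described together. Cd209a was at 0.229, 0.0929 and 0.172 CPM in colon WT and at 0.258, 0.0653 and 0.241 CPM in colon KO. LPMC libraries held 1.95, 1.21 and 0.390 CPM in WT and 0.553, 0.826 and 2.08 CPM in KO. No LPMC library reached down to the colon range, although LPMC WT replicate 3 came close. The log2 fold change was 2.69 (SE 0.52, adjusted p = 0.00152). Clec10a ran from 0.700 to 1.35 CPM in colon WT, 0.261 to 2.78 in colon KO, 1.17 to 2.90 in LPMC WT and 0.875 to 3.35 in LPMC KO. Its tissues overlapped, and its log2 fold change of 0.66 (SE 0.51, adjusted p = 0.301) did not pass. Whether the difference between the pair is itself beyond their spread was not tested.

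Both cDC2 genes have close relatives. Reads of Clec10a and of its neighbouring paralog Mgl2 can be hard to assign, so both are uncertain. Mgl2 was at 0.372 to 1.25 CPM in colon and 0.390 to 2.16 CPM in LPMC, with an LPMC against colon estimate of 0.66 on the log2 scale (SE 0.43, adjusted p = 0.222). Of the other Cd209 genes, Cd209d was at 0 to 0.151 CPM in colon and 0.0243 to 0.526 CPM in LPMC, and Cd209b, c, e, f and g stayed at or below 0.455 CPM in every library. Of 12 other cDC2 genes 11 were tested, and 4 were called higher and 1 lower (median 0.89), against 25.4% and 24.9% of all genes. Lowest in p were the repressor of NF-kB signalling Tnip3 (-2.24, SE 0.15), Cd7, which T and NK cells also carry (3.87, SE 0.38), the short-chain fatty acid receptor Ffar2 (2.23, SE 0.29) and the adhesion molecule Esam, also endothelial (1.72, SE 0.29). Their adjusted p was 1.53e-06, 2.36e-05, 0.000141 and 0.000732.

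Among the genes shared by all conventional dendritic cells, Zbtb46 and Flt3 passed and Itgax did not. Zbtb46 was at 2.55, 1.67 and 1.40 CPM in colon WT and 1.71, 1.01 and 1.83 CPM in colon KO. In LPMC it was at 9.43, 6.76 and 4.72 CPM in WT and 7.63, 4.13 and 9.59 CPM in KO. The tissues did not overlap, and the log2 fold change was 2.06 (SE 0.29, adjusted p = 0.000222). Markers of endothelium, which also expresses this gene, moved with it. All 8 of 8 had a positive log2 fold change and 6 were called higher, against 25.4% of all genes. Their summed level was 34.4 to 94.8 CPM in colon and 147 to 386 CPM in LPMC, and none had 0 counts in all 12 libraries. The part of endothelial RNA in the Zbtb46 result was not tested.

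Flt3 was at 3.04, 0.883 and 1.03 CPM in colon WT and 1.26, 0.392 and 1.88 CPM in colon KO. LPMC held 9.90, 7.77 and 2.28 CPM in WT and 4.05, 2.26 and 6.13 CPM in KO. The tissues overlapped through colon WT replicate 1, which exceeded the lowest LPMC libraries, LPMC WT replicate 3 and LPMC KO replicate 2. The log2 fold change was 1.90 (SE 0.50, adjusted p = 0.00908), and the call was lost with WT libraries alone (1.98, adjusted p = 0.0705) and with KO libraries alone (1.80, adjusted p = 0.0771). The calls of Zbtb46, Cd209a and Siglech held in each genotype, with adjusted p of 0.0115 to 0.0417. Its ligand Flt3l, singled out after its values were seen, was at 3.78 to 8.97 CPM in colon and 2.60 to 4.55 CPM in LPMC (-0.57, SE 0.23, adjusted p = 0.0564).

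Itgax was the most abundant member. Colon WT held 18.04, 21.4 and 9.60 CPM and colon KO 16.6, 2.89 and 15.4 CPM. LPMC held 37.0, 18.3 and 15.2 CPM in WT and 31.8, 13.4 and 40.3 CPM in KO. Colon KO replicate 2 lay far below the rest, and the tissues overlapped. The log2 fold change was 0.91 (SE 0.44, adjusted p = 0.11). Macrophage markers, whose cells carry Itgax as well, summed to 266 to 444 CPM in colon and 248 to 682 CPM in LPMC. Of the 12, 1 was called higher and 1 lower, against 25.4% and 24.9% of all genes. None of these markers had 0 counts in all 12 libraries.

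The 3 cDC1 genes were not called between the tissues. Xcr1 was at 0.145, 0.743 and 0.545 CPM in colon WT and 0.538, 0.0326 and 0.723 CPM in colon KO, and at 2.01, 1.58 and 0.429 CPM in LPMC WT and 0.764, 0.535 and 1.36 CPM in LPMC KO. Its log2 fold change was 1.26 (SE 0.62, adjusted p = 0.113). Clec9a ran from 0.350 to 1.44 CPM in colon and from 0.604 to 2.60 CPM in LPMC (0.51, SE 0.47, adjusted p = 0.383). Both genes were highest in LPMC WT replicates 1 and 2. Clec9a overlaps Clec1b on the same strand, and Clec1b was at 0 to 0.205 CPM, with its highest value in colon WT replicate 1, where Clec9a was at 0.350 CPM. Batf3 was at 2.75, 3.51 and 2.08 CPM in colon WT, 1.31, 0.946 and 1.41 CPM in colon KO, 1.89, 1.503 and 0.468 CPM in LPMC WT and 1.55, 0.267 and 1.79 CPM in LPMC KO. By mean level, colon WT was the highest group for Batf3 and LPMC WT for Xcr1 and Clec9a. The log2 fold change of Batf3 was -0.56 (SE 0.44, adjusted p = 0.314). Whether Batf3 differs from Xcr1 and Clec9a beyond their spread was not tested.

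Of 12 other cDC1 genes, all tested, 4 were called higher and 1 lower in LPMC (median 0.48), against 25.4% and 24.9% of all genes. The 4 of lowest p were Cd24a (1.97, SE 0.20), a surface glycoprotein that epithelium also carries, the transcriptional inhibitor Id2 (1.69, SE 0.21), the integrin chain Itgae (2.18, SE 0.29), which gut T cells share, and the lipid amidase Naaa (0.59, SE 0.17). Their adjusted p was 2.58e-05, 0.000104, 0.000143 and 0.0122. All 8 T cell markers were called higher in LPMC, against 25.4% of all genes. Their sums were 9.28 to 50.01 CPM in colon and 62.5 to 234 CPM in LPMC, and none had 0 counts in all 12 libraries. Their part in the Itgae and Cd7 results was not tested.

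Fscn1, the gene of mature cells, was at 15.0, 5.90 and 3.74 CPM in colon WT and 5.39, 4.01 and 6.71 CPM in colon KO. LPMC held 14.6, 10.9 and 3.08 CPM in WT and 11.8, 2.93 and 11.8 CPM in KO. The lowest and the second lowest value of all 12 libraries were both in LPMC, and the log2 fold change of 0.46 (SE 0.47, adjusted p = 0.436) did not pass. Markers of enteric neurons and glia were lower in LPMC (8 of 8 called, against 24.9% of all genes). Their sums were 41.2 to 122 CPM in colon and 10.5 to 19.8 CPM in LPMC. Their part in the Fscn1 level was not tested.

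Of 20 other genes of mature and migratory dendritic cells, 12 were called higher and 1 lower (median 1.47), against 25.4% and 24.9% of all genes. Lowest in p were the cytokine signalling inhibitor Socs2 (2.33, SE 0.17), the lymph node homing receptor Ccr7 (4.76, SE 0.71), which T and B cells carry too, the TNF receptor adaptor Traf1 (2.75, SE 0.43) and Tmem123 (1.73, SE 0.28). Their adjusted p ran from 2.81e-06 to 0.000522. Among 16 growth factors, receptors and chemoattractants of dendritic cells, 15 were tested. Of these, 6 were called higher and 1 lower (median 1.24), against 25.4% and 24.9% of all genes. Csf2, the growth factor GM-CSF, averaged 2.32 CPM in LPMC and 0.207 CPM in colon (3.75, SE 0.41, adjusted p = 4.4e-05). Xcl1, the ligand of Xcr1, averaged 8.01 and 0.840 CPM (3.26, SE 0.44, adjusted p = 0.000167). Kit (3.22, SE 0.25), a receptor of mast cells and progenitors, and Csf1 (1.94, SE 0.35), the macrophage growth factor, completed the 4.

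Of 12 cytokines and enzymes that dendritic cells can make, 7 were called higher and 1 lower in LPMC (median 1.98). The shares over all genes were 25.4% and 24.9%. Il23a, a chain of IL-23, averaged 12.9 CPM in LPMC and 0.427 CPM in colon (4.93, SE 0.48, adjusted p = 2.21e-05). Il12b, the chain shared by IL-12 and IL-23, averaged 5.32 and 0.231 CPM (4.42, SE 0.60, adjusted p = 0.000176). The TNF family ligands Tnfsf15 (3.63, SE 0.35) and Tnfsf4 (4.06, SE 0.70) were also called.

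Without the 3 libraries that stood apart, 6 of 10 members were called higher in LPMC, where 23.3% of 21565 genes were. Itgax (0.97, adjusted p = 0.0229) and Xcr1 (1.34, adjusted p = 0.0384) were added. The set was chosen after seeing the data, the members' own low values included, so the added calls are no independent support. Clec9a (adjusted p = 0.265), Batf3 (0.49), Fscn1 (0.118) and Clec10a (0.119) remained uncalled.

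**Figure D2:**
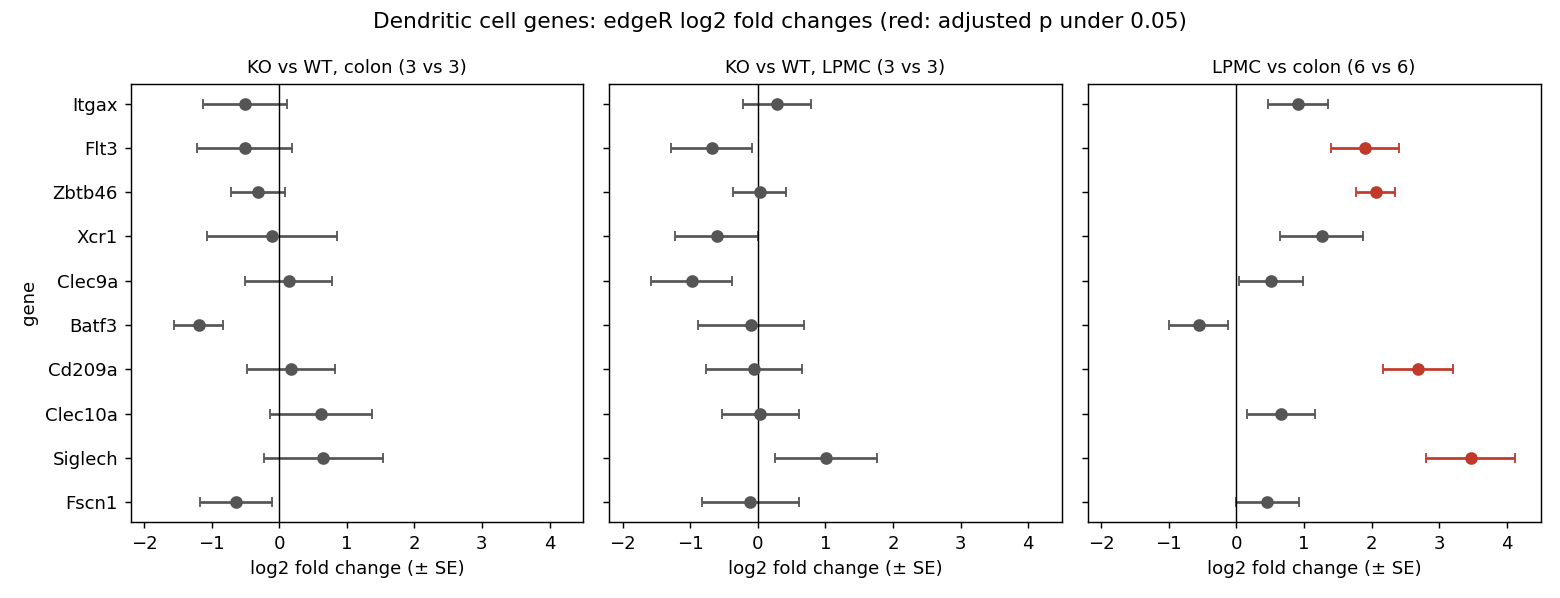
Log2 fold change of each gene with its standard error (horizontal axis) for KO against WT in colon, KO against WT in LPMC and LPMC against colon; red points passed an adjusted p of 0.05 by edgeR. No point is red in either KO comparison, and Flt3, Zbtb46, Cd209a and Siglech are red in the comparison of LPMC with colon.

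To compare genes with each other, CPM was divided by exon length in kilobases. In colon the order of mean levels was Itgax (2.91 ± 1.39 CPM per kb, SD, n = 6), Fscn1 (2.26 ± 1.39), Batf3 (1.25 ± 0.612), Clec10a (0.435 ± 0.301), Clec9a (0.272 ± 0.141), Flt3 (0.229 ± 0.151), Zbtb46 (0.200 ± 0.0599), Cd209a (0.112 ± 0.0514), Xcr1 (0.102 ± 0.0670) and Siglech (0.0862 ± 0.0612). Neighbours in that order differed by more than the larger of their SDs at only 2 of 9 steps, from Batf3 to Clec10a and from Zbtb46 to Cd209a. In LPMC the order was Itgax (5.41 ± 2.45), Fscn1 (3.05 ± 1.64), Siglech (1.01 ± 0.745), Flt3 (0.874 ± 0.500), Zbtb46 (0.828 ± 0.271), Batf3 (0.779 ± 0.436), Cd209a (0.737 ± 0.450), Clec10a (0.674 ± 0.336), Clec9a (0.409 ± 0.259) and Xcr1 (0.250 ± 0.142). There 1 step, from Fscn1 to Siglech, exceeded the larger SD. These orders pool the genotypes. Siglech was at rank 7 in LPMC WT (0.666 CPM per kb) and rank 3 in LPMC KO (1.35), and in colon KO Xcr1 (0.0969) rather than Siglech (0.105) was last. The steps on either side of Batf3 in LPMC, and of Siglech in LPMC WT, were within the larger SD.

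KO colon was then set against WT colon, to see whether the members differ in inflamed tissue without Gpr15l. For Batf3, all 3 colon KO libraries were below all 3 colon WT libraries. The same held for 6.53% of all 19303 genes tested. Mean Batf3 was 1.22 ± 0.246 CPM in KO and 2.78 ± 0.715 CPM in WT (SD, n = 3). Its log2 fold change of -1.19 (SE 0.36) had an unadjusted p of 0.0117 and an adjusted p of 0.632, so it did not pass edgeR's test. The other 9 members overlapped between the genotypes.

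None of the 10 members was called by edgeR or DESeq2 in colon. There edgeR called 0.00518% of 19303 genes, which was the deleted gene alone. By edgeR, 1 of 10 members had an unadjusted p under 0.05, as had 1504 of all 19303 genes tested. Groups failed to overlap for 1 of 10 members, which was lower in KO, against 14.3% of all genes tested and 6.53% in that direction. The median log2 fold change was -0.22 over the members, 6 of them negative, and 0.006 over all genes. Siglech (0.65, SE 0.88), Clec10a (0.62, SE 0.75), Cd209a (0.17, SE 0.65) and Clec9a (0.14, SE 0.64) had positive estimates. Fscn1 (-0.64, SE 0.53), Itgax (-0.51, SE 0.62), Flt3 (-0.51, SE 0.70), Zbtb46 (-0.32, SE 0.40) and Xcr1 (-0.11, SE 0.96) had negative ones. Standard errors of this size leave wide intervals: 2 SE on either side of the Siglech estimate ran from -1.11 to 2.42.

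Single libraries carried much of the spread in colon. Colon KO replicate 2 was the lowest colon library for 8 of 10 members, and with it left out no member was called either (Batf3 -1.04, adjusted p = 0.292). It also held the lowest leukocyte marker sum (25.1 CPM) and the highest sums of smooth muscle (2063 CPM) and epithelial markers (29309 CPM). Colon WT replicate 1 was the highest for Flt3, Zbtb46 and Fscn1 but the lowest for Clec9a. Its B cell markers summed to 875 CPM, where the remaining 5 colon libraries had 2.24 to 20.2 CPM. Leaving it out turned the estimates of Flt3 (0.30) and Fscn1 (0.15) positive and that of Clec9a (-0.24) negative.

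All 6 pan-leukocyte markers had negative estimates in colon KO (median -1.52), with 0 called and 0 without overlap. Their sums were 66.9 to 621 CPM in colon WT, highest in replicate 1, and 25.1 to 120 CPM in colon KO. Of the T cell markers, whose cells can express Batf3, 8 of 8 were negative (median -1.37) and 0 were called. Groups failed to overlap for 6 of the 8, all lower in KO, against 6.53% of all genes tested in that direction. T cell sums were 15.8 to 50.01 CPM in colon WT and 9.28 to 18.8 CPM in colon KO. Their part in the Batf3 difference was not tested.

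No gene of the other dendritic cell lists was called in colon KO. Of the 15 other plasmacytoid genes 9 were negative, with the lowest p for the surface protein Bst2 (-1.52, SE 0.29) and for Ly6d (-2.01, SE 0.56), which B cell progenitors and squamous epithelium also express. Of 19 other mature genes tested 16 were negative (median -0.71), with the lowest p for the actin regulator Marcksl1 (-0.87, SE 0.23) and for the maturation marker Cd83 (-2.67, SE 1.17). B cells, which can express Cd83, Ltb and Irf4, had 7 of 7 markers negative in the same comparison (median -5.26, 0 called, 0 without overlap), with the sum of 875 CPM in colon WT replicate 1 given above. Their part in these lists was not tested. Among growth and attraction genes 12 of 14 tested were negative (median -0.40), and the lowest p was that of Kit, which was positive (1.18, SE 0.39), followed by Csf2 (-1.93, SE 0.67) and the lymphoid organ cytokine Ltb (-3.63, SE 1.27). Ido1, a tryptophan-degrading enzyme, had the lowest p of the cytokine and enzyme list (-2.34, SE 0.82). Each of these 8 genes had an adjusted p of 0.632. The cDC1 list (8 of 12 negative, median -0.17) and the cDC2 list (8 of 11 negative, median -0.18) had Cd24a (0.60, SE 0.19) and Irf4 (-3.04, SE 1.38) as their genes of lowest p, with adjusted p of 0.632 and 0.636.

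In LPMC the genotypes overlapped for all 10 members, against 7.41% of 19426 genes without overlap. Siglech and Clec9a had the largest estimates, in opposite directions. Mean Siglech was 2.25 ± 1.31 CPM in the WT and 4.57 ± 3.18 CPM in the KO libraries (SD, n = 3), with an estimate of 1.01 (SE 0.76), with LPMC KO replicates 1 and 3 above every WT library and LPMC KO replicate 2 above LPMC WT replicate 3 only. Clec9a was at 2.60, 2.07 and 0.683 CPM in WT and 0.604, 0.632 and 1.5 CPM in KO (-0.98, SE 0.60). LPMC WT replicate 3 lay inside the KO range.

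None of the members was called by edgeR or DESeq2 in LPMC, where 0.0103% of all genes were called by edgeR, the deleted gene among them. By edgeR, 0 members had an unadjusted p under 0.05. The adjusted p was 0.998 for each. All 3 cDC1 genes had negative estimates, Xcr1 at -0.61 (SE 0.62) and Batf3 at -0.10 (SE 0.78) beside Clec9a. Flt3 was at -0.68 (SE 0.60), Fscn1 at -0.11 (SE 0.72) and Cd209a at -0.05 (SE 0.71). Itgax (0.28, SE 0.50), Clec10a (0.04, SE 0.57) and Zbtb46 (0.03, SE 0.39) were positive. The median was -0.08 over the members and -0.004 over all genes.

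LPMC KO replicate 2 held the lowest LPMC value for 6 of 10 members and LPMC WT replicate 3 for 3. Without both libraries 0 members were called, and the estimates were 1.12 for Siglech (adjusted p = 0.542), -1.15 for Clec9a (0.779) and -0.79 for Flt3 (0.68). Those libraries also had the lowest leukocyte sums in LPMC, 273 and 398 CPM against 470 to 1038 CPM. Macrophage markers had 11 of 12 positive estimates in LPMC KO (median 1.00), with sums of 273 to 445 CPM in WT and 248 to 682 CPM in KO, and 0 were called. Estimates were also positive for 7 of 8 neutrophil markers (median 1.81), 7 of 7 B cell markers (0.83), 8 of 8 T cell markers (0.42) and 6 of 6 pan-leukocyte markers (0.59), with 0 called in each list and 0 without overlap. Their part in the members' estimates was not tested.

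No gene of the other dendritic cell lists was called in LPMC KO. Lowest in p were the microbial sensor Tlr11 (-2.05, SE 0.72), the integrin chain Itgae (-0.90, SE 0.35), the chemokine Ccl22 (-1.56, SE 0.55), which mature dendritic cells make, and the chemokine Ccl20 (-1.30, SE 0.48), made chiefly by epithelium. Each had an adjusted p of 0.998. The medians were -0.15 for the other cDC1 genes, 0.13 for cDC2, 0.32 for plasmacytoid, 0.17 for mature, 0.34 for growth and attraction genes and -0.12 for cytokines and enzymes.

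The KO effect was also compared between the tissues. For no member did the difference between LPMC and colon pass by edgeR or DESeq2 (0 of 10 called, and 0 with an unadjusted p under 0.05 by edgeR), where 0% of 20989 genes were called by edgeR. The largest differences were -1.14 (SE 0.94) for Clec9a and 1.07 (SE 0.89) for Batf3, with an adjusted p of 0.906 for both.

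Ratios within a library show how the subset genes stood to one another. Reads of Xcr1 came to 18.8 to 23.7% of Flt3 reads in all 6 LPMC libraries, although Flt3 itself ranged from 2.26 to 9.90 CPM there. In colon the same ratio ran from 4.76% in colon WT replicate 1 to 84.2% in colon WT replicate 2. The colon libraries held 2 to 108 counts of Xcr1 and 24 to 281 of Flt3, the LPMC libraries 22 to 211 and 117 to 1038. The part of low counts in the wider colon range was not tested. Clec9a was at 14.9 to 29.9% of Flt3 reads in LPMC and at 11.5 to 163% in colon. These ratios are not corrected for length and were not tested.

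**Figure D3:**
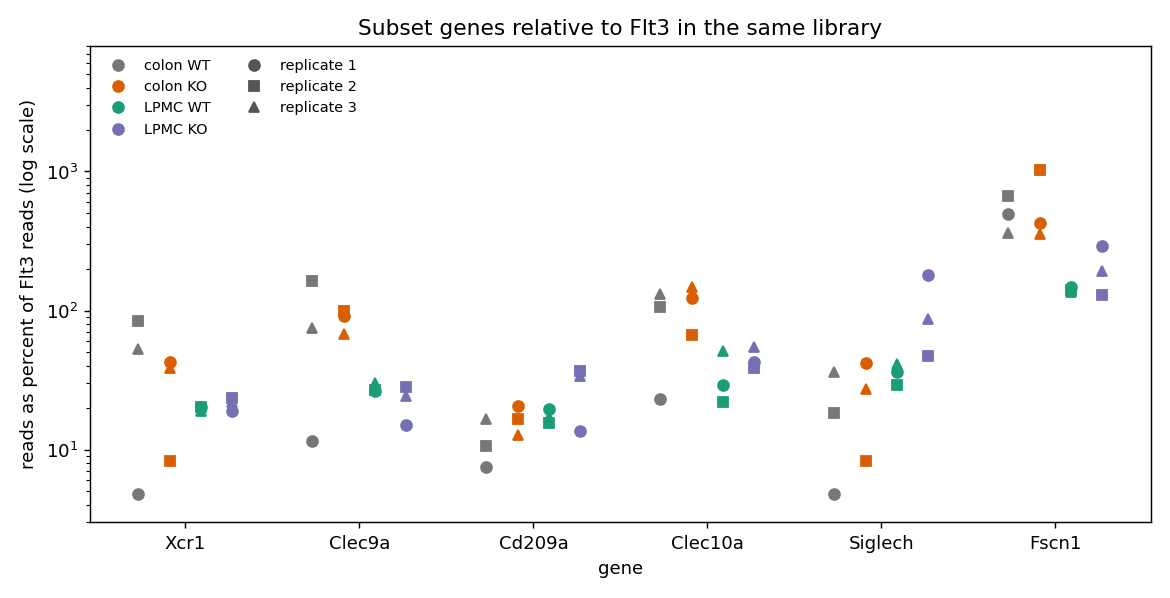
Reads of 6 subset genes as a percent of Flt3 reads in the same library (vertical axis, log scale), by gene; colours are groups and shapes are replicates. The 6 LPMC values of Xcr1 sit between 18.8 and 23.7%, while the colon values, from 2 to 108 Xcr1 counts per library, spread from 4.76 to 84.2%.

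Cd209a stood at 15.6 to 19.7% of Flt3 reads in LPMC WT and at 13.6, 36.6 and 33.9% in LPMC KO. Siglech stood at 29.2 to 41.0% of Flt3 reads in LPMC WT and at 180, 47.3 and 87.6% in LPMC KO. In this ratio all 3 KO libraries were above all 3 WT libraries, and its denominator Flt3 had a negative KO estimate (-0.68). The LPMC ratios of Xcr1, Clec9a, Cd209a, Clec10a, Fscn1 and Itgax to Flt3 overlapped between the genotypes. The share of all genes without overlap in such a ratio was not computed. As a percent of Ptprc reads, Siglech overlapped between the genotypes in LPMC, at 1.96, 1.93 and 0.734% in WT and 2.63, 1.40 and 1.81% in KO. In colon the Siglech ratio overlapped between genotypes, at 4.76 to 36.1% in WT and 8.33 to 41.9% in KO. Fscn1 reads exceeded those of Flt3 in every library, at 357 to 1025% in colon and 130 to 291% in LPMC, without overlap between the tissues. Flt3, the denominator, was itself called higher in LPMC (1.90, SE 0.50), while Fscn1 was not called (0.46, SE 0.47).

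Set against Ptprc instead, the mean share was lower in LPMC than in colon for 9 of 10 members, which was not tested. Batf3 reads averaged 12.8 ± 9.68% of Ptprc reads in colon and 0.699 ± 0.377% in LPMC (SD, n = 6), and the tissues did not overlap. Itgax averaged 71.0 ± 34.6% and 15.1 ± 3.45%, Fscn1 38.3 ± 30.8% and 5.30 ± 2.71%. Fscn1 did not overlap either, at 12.1 to 97.6% in colon and 2.42 to 9.27% in LPMC, while Itgax did. The share of all genes without overlap relative to Ptprc was not computed. Cd209a (1.03 ± 0.673% and 0.731 ± 0.398%) and Siglech (1.68 ± 1.49% and 1.74 ± 0.633%) differed by less than their SDs. Ptprc itself was at 4.11 to 124 CPM in colon and 76.5 to 297 CPM in LPMC, and colon WT replicate 1 was the colon library at 124 CPM.

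**Figure D4:**
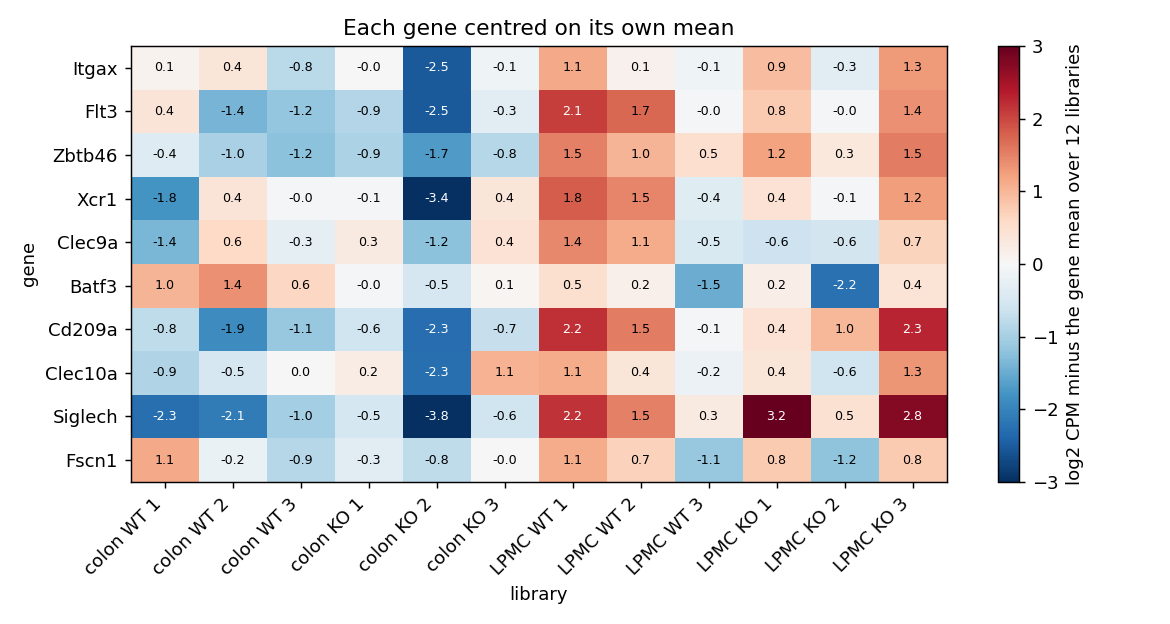
Log2 CPM of each gene minus its own mean over the 12 libraries (colour and printed value), with genes in rows and libraries in columns; the colour scale ends at -3 and 3. Colon KO replicate 2 is the lowest column for most genes (Siglech -3.85, Xcr1 -3.39), and Siglech is highest in LPMC KO replicate 1 (3.19).

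Likeness over the 12 libraries was described by the root-mean-square difference of log2 CPM after each gene was centred on its mean. Among the 45 pairs of members, Flt3 and Zbtb46 lay closest (0.511), then Flt3 and Cd209a (0.572) and Zbtb46 and Cd209a (0.589). Batf3 and Siglech lay farthest apart (2.36). Xcr1 and Clec9a, both of cDC1, were 0.768 apart, and Cd209a and Clec10a, both of cDC2, were 1.04 apart.

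Outside the 10, the genes nearest to Itgax were Tyrobp (0.192), a signalling adaptor of myeloid and NK cells, Sirpa (0.213), a receptor of macrophages and cDC2, and Anpep (0.250), against a spread of Itgax itself of 0.961. Flt3 (own spread 1.30) was nearest to Sncaip (0.405), the endothelial and leukocyte adhesion molecule Pecam1 (0.444) and Adamts14 (0.445). Zbtb46 (1.10) was nearest to AW011738 (0.222), Lrrc8c (0.240) and Map3k14 (0.246), a kinase of the alternative NF-kB pathway. Batf3 (0.966) lay near Il3ra (0.467), a chain of the IL-3 receptor, Aif1 (0.473), a macrophage gene, and Ptgs1 (0.498). Fscn1 (0.839) lay near Iffo1 (0.237) and Mmp23 (0.246). Clec10a (0.954) lay near Tmem64 (0.299), Il1rl2 (0.335) and Plbd1 (0.375). Siglech (2.06) had no neighbour closer than the NK cell receptor Klrb1c (0.530), followed by Tnfsf14 (0.639), and Clec9a (0.853) none closer than Fam13c (0.460), Chrdl1 (0.462) and Arhgap10 (0.463). Xcr1 and Cd209a averaged under 1 CPM and were left out by the rule. These distances carry the tissue difference and the libraries' composition with them.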

How the data were processed

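RNA of 12 mouse libraries was measured, 3 for each of 4 groups named by tissue and genotype in the sample titles. Per the labels' protocols, stranded mRNA libraries (TruSeq) were sequenced on an Illumina HiSeq instrument. Per the submitters' processing notes, STAR and the build GRCm38 (mm10) were used. The counting tool, annotation and strand setting were not stated there. In the file, the authors deposited raw counts per Ensembl gene, with 45.4 to 140.7 times 1000000 counts per library. Of 54109 identifiers, 54042 matched GENCODE M21. Between 66.6 and 76.6% of counts of 20 or less were even, so mates may have been counted separately and counts overstate precision.

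Tests used edgeR 4.0.16 in R 4.3.3 (TMM, filterByExpr with a minimum count of 10, robust quasi-likelihood F-test), with Benjamini-Hochberg adjustment over all genes tested and a threshold of 0.05. KO was compared with WT on the 6 libraries of a tissue, and LPMC with colon, and the KO effects with each other, on all 12. The standard error is the log2 fold change divided by the square root of F. Log2 CPM used a prior count of 2. All 10 members passed the low-count filter in every comparison. Of the other lists, up to 4 genes of lowest p were named, and likeness took the 3 nearest genes with a mean of at least 1 CPM, of which some are not reported here. The members and lists were chosen with earlier results of these data known. Alternatives were DESeq2 1.42.0, RLE size factors, no filter, a replicate block, other sets of libraries and each library left out.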

Additional observations from a re-analysis of the deposited data

How the results depend on the processing

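The 4 calls between LPMC and colon (Siglech, Cd209a, Zbtb46, Flt3) held with each library left out, and Flt3 then had an adjusted p of 0.00442 to 0.0242. Over all genes, KO against WT gave 1 call in colon with edgeR, 22 with DESeq2 and 2 in a fit of all 12 libraries (0 to 1 with a library left out). In LPMC it gave 2 calls, 28 with DESeq2, 4 with no filter and 5 without the 2 libraries that stood apart, an alternative chosen after seeing the data (1 to 2 with a library left out). The 1 edgeR call in colon was the deleted gene (adjusted p = 0.00238), which was also among the 2 edgeR calls in LPMC (adjusted p = 0.00162). DESeq2 called 3 genes for the difference of KO effects, where edgeR called 0. LPMC against colon gave 10549 calls, 6393 with WT and 5053 with KO libraries alone (9451 to 10790 with a library left out). Deviations of same-numbered WT and KO libraries correlated with r of -0.23 to 0.24, and those of same-numbered colon and LPMC libraries with 0.064 to 0.303, 4 of 6 over 0.1 and 5 of 6 highest with their own number. As not every r was over 0.1, the numbers were not taken to pair the libraries, although between the tissues they hint at it. With a replicate block, calls were 0 in colon, 0 in LPMC and 10109 between tissues, and the KO estimates in LPMC turned to -0.015 for Zbtb46 and -0.12 for Clec10a. That block joined same-numbered libraries of both genotypes, so a pairing of colon with LPMC within a genotype was not modelled. In KO libraries alone, Clec9a was at -0.055 between tissues. No member was called for KO under any alternative, and some estimates changed sign with 1 library left out. In colon these ran from -1.0025 to 0.30 (Flt3), -0.68 to 0.41 (Xcr1), -0.24 to 0.74 (Clec9a), -0.082 to 0.54 (Cd209a), -0.96 to 0.15 (Fscn1) and -0.12 to 1.11 (Clec10a). In LPMC they ran from -0.062 to 0.77 (Itgax), -0.25 to 0.31 (Zbtb46), -0.50 to 0.37 (Batf3), -0.80 to 0.51 (Cd209a), -0.53 to 0.34 (Fscn1) and -0.58 to 0.47 (Clec10a). For the difference of effects they ran from -0.996 to 0.31 (Flt3), -1.03 to 0.0625 (Xcr1), -0.98 to 0.31 (Cd209a), -0.23 to 0.83 (Siglech), -0.28 to 0.95 (Fscn1) and -1.21 to 0.15 (Clec10a). The cause of these shifts was not tested. Members under 1 CPM rest on few counts.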
